A study of Rattus norvegicus with 9 samples.

Results

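The 10 genes described here encode the core of transforming growth factor beta (TGF-beta) signalling: the ligands Tgfb1, Tgfb2 and Tgfb3, the latent binding protein Ltbp1, the receptors Tgfbr1, Tgfbr2 and Tgfbr3, the receptor-activated Smads Smad2 and Smad3, and the inhibitory Smad7. They were taken by gene symbol from a table of 36051 genes in rat spinal cord, and all 10 were among the 16678 genes with enough counts to test. The spinal cords came from wild-type rats and were sampled on day 3 in 3 groups of 3 libraries. SCI_ALA cords had an impact contusion at thoracic segment 9 and alpha-lipoic acid, an antioxidant cofactor. SCI_Veh cords had the same contusion and normal saline. Sham cords had a sham operation. The labels used here give no strain, sex, age, dose or number of rats per library, and do not say that replicates came from separate rats, so the p-values measure the spread between these libraries, which may be partly technical.

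TGF-beta ligands are secreted in a latent complex with their own propeptide, which Ltbp1 tethers to the extracellular matrix, and must be released before they can bind. The released ligand binds the type II receptor (Tgfbr2), which recruits and phosphorylates the type I receptor (Tgfbr1), and betaglycan (Tgfbr3) presents ligand to them. The type I receptor phosphorylates Smad2 and Smad3, which enter the nucleus with Smad4 and regulate genes, while Smad7 is induced by the pathway and restrains the type I receptor. In injured central nervous tissue the pathway is known for its part in microglial regulation, astrocyte scarring and deposition of fibrotic matrix.

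After the injury, the transcripts of 1 ligand and of the signalling receptor pair rose while most other members did not pass the test. In SCI_Veh against sham, 3 of 10 members rose (Tgfb1, Tgfbr1 and Tgfbr2), where 19.5% of all tested genes rose, and 0 of 10 fell, where 18.5% of all tested genes fell and 38% were called either way. By DESeq2, and at an unadjusted p below 0.05 in edgeR, 1 member (Smad7) was lower. In SCI_ALA against SCI_Veh, 1 of 10 members fell (Tgfbr1), where 0.042% of all tested genes fell, and 0 of 10 rose, where 0.0779% rose and 0.12% were called either way. No member was higher at an unadjusted p below 0.05 in edgeR (0 of 10) or by DESeq2 (0 of 10). In SCI_ALA against sham, Tgfb1, Tgfbr1 and Tgfbr2 rose, as 17.3% of all tested genes did, and Smad7 fell, as 15.8% of all tested genes did, with 33.1% called either way. A call is an adjusted p below 0.05 in edgeR's quasi-likelihood test, with Benjamini-Hochberg adjustment over all 16678 genes. Members and gene lists were chosen with earlier results of these data known, so their shares of calls are descriptive. The comparisons share libraries, so their results are not independent: SCI_Veh stands in the first and the second, SCI_ALA in the second and the third, and sham in the first and the third.

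**Figure D1:**
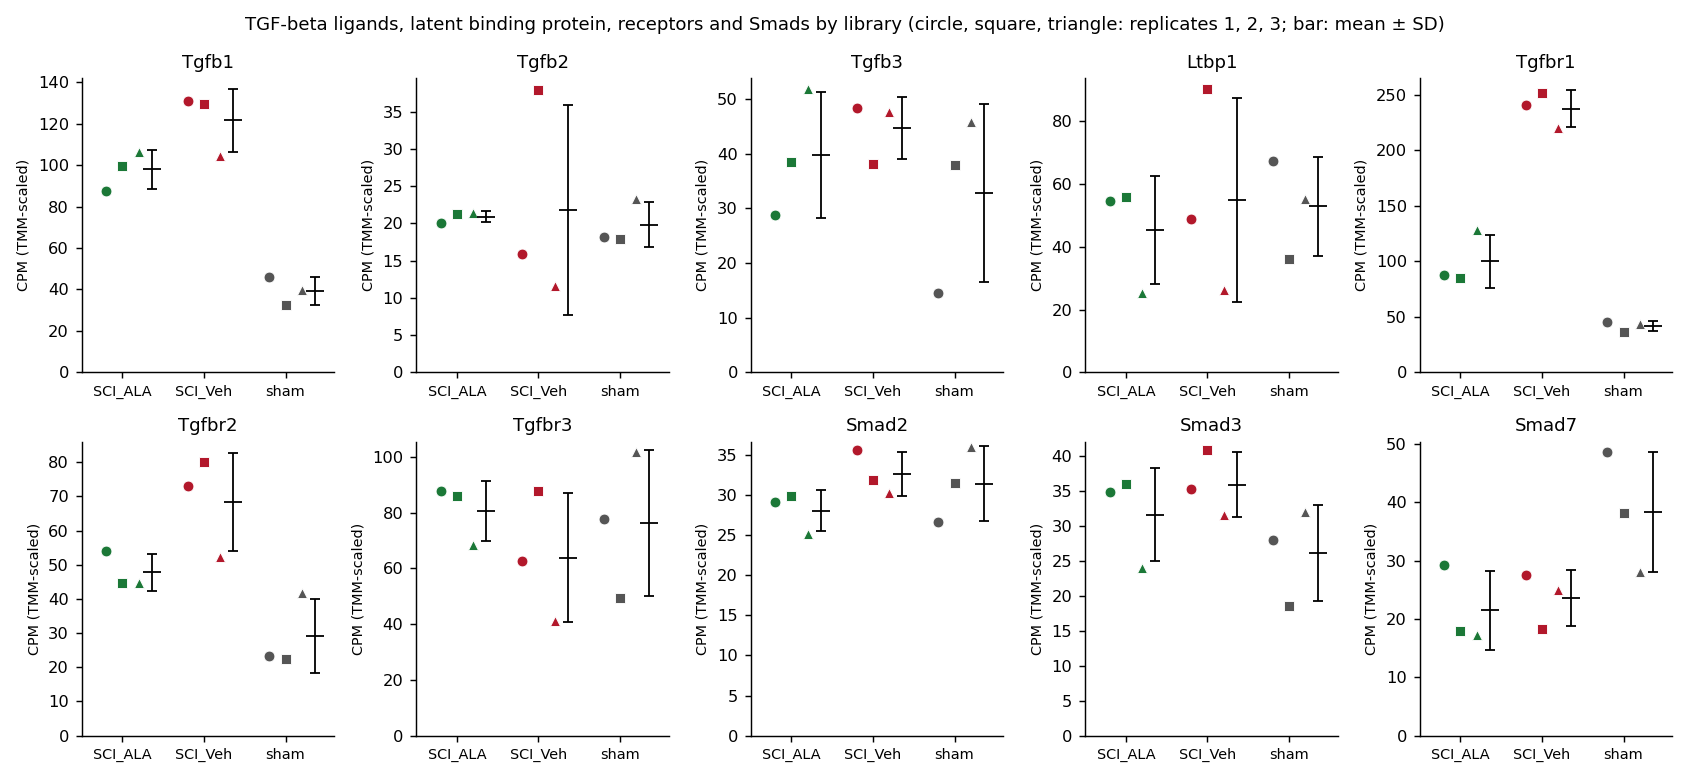
Level of each of the 10 genes in counts scaled by library size (CPM, y axis) in SCI_ALA, SCI_Veh and sham libraries (x axis). Each point is 1 library, with a shape for each replicate number, and bars show the mean and SD of 3 libraries. Tgfb1 and Tgfbr1 of sham lie below every injured library, with Tgfbr1 averaging 100 CPM in SCI_ALA, 238 CPM in SCI_Veh and 41.9 CPM in sham.

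The promoters of the 3 genes that rose after injury and of Smad7 are shown because these are the members called between an injured group and sham. They are RefSeq sequences of 300 bases in the build GRCr8, reaching from 250 bases before to 50 bases after the annotated start, written 5′ to 3′ on the gene's strand. Each was matched by gene symbol, which gave a single promoter for 9 of the 10 members. Capitals mark every match, on either strand, to CAGAC (a Smad-binding element), to GTCTAGAC (the palindromic Smad-binding element, in which CAGAC does not occur), to TGANTCA (an AP-1 element, with N for any base) and to GGGCGG (an Sp1-type GC box).
Tgfb1, chr1:90324062-90324361, plus strand: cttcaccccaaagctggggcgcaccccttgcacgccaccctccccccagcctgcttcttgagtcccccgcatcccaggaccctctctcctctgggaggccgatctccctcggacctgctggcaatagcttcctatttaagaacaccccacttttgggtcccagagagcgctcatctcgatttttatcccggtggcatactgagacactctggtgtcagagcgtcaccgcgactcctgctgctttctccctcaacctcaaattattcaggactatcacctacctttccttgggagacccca
Tgfbr1, chr5:66449148-66449447, plus strand: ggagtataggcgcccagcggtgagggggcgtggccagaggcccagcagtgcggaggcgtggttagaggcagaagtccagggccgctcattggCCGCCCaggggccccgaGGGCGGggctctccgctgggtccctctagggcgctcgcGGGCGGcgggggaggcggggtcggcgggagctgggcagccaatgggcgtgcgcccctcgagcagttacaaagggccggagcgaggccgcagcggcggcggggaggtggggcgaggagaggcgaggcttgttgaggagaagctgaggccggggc
Tgfbr2, chr8:124761420-124761719, minus strand: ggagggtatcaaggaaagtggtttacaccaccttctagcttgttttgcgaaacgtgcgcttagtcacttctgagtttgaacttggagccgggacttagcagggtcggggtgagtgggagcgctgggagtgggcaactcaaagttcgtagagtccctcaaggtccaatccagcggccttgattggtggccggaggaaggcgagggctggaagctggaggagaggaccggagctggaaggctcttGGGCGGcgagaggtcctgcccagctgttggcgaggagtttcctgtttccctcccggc
Smad7, chr18:71263258-71263557, plus strand: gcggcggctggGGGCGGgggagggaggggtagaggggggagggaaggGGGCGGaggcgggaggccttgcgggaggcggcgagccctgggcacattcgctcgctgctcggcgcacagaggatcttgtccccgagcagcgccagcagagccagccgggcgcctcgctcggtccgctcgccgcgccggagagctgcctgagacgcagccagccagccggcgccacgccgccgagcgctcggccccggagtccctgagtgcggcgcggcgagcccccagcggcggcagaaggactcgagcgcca
In these windows GGGCGG was found 3 times for Tgfbr1, 2 times for Smad7, 1 time for Tgfbr2 and 0 times for Tgfb1. Of 33469 rat promoters of the same length, 33.1% hold GGGCGG, 50.1% hold CAGAC, 7.33% hold TGANTCA and 0.197% hold GTCTAGAC. Of the 9 members with a single promoter, Ltbp1 had 1 match to CAGAC, and neither TGANTCA nor GTCTAGAC was found in any of them. These letter matches are descriptions of the windows and were not tested against the expression values.

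The libraries held 13857771 to 15736132 counts, and the members had 171 to 3781 counts per library. Markers of neurons, oligodendrocytes and astrocytes were present in every library, and those of skeletal muscle summed to at most 30.0 CPM. Mitochondrial transcripts took 7.50% ± 0.949 of counts in SCI_ALA, 7.35% ± 0.805 in SCI_Veh and 12.2% ± 3.54 in sham (SD, n = 3 each), with the highest share, 15.7%, in sham replicate 2. The libraries also differed in how levels related to gene length. The Spearman correlation across genes between gene length and a library's deviation from the mean log2 level ranged from -0.460 to 0.033 in SCI_ALA, from 0.052 to 0.118 in SCI_Veh and from -0.188 to 0.342 in sham, with the lowest values in SCI_ALA replicate 3 and sham replicate 2 of their groups. For the members called, values without both of these libraries are given where the call changes. At the table's coordinates no gene with any count overlapped a member, and the strand setting of the counting is not given in the sources used here.

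Among the ligands, Tgfb1 alone passed the test. Tgfb1 (ENSRNOG00000020652, chromosome 1, 82480195 to 82497199, plus strand, Rnor_6.0) encodes the ligand most associated with wound healing and immune regulation. It had 87.7, 99.8 and 106 CPM in SCI_ALA, 131, 130 and 104 CPM in SCI_Veh, and 46.0, 32.4 and 39.8 CPM in sham. Every injured library lay above every sham library, while the SCI_ALA and SCI_Veh libraries overlapped. Of the 10 members, 3 had every SCI_Veh library above every sham library and 1 had every one below, where 25.8% of all tested genes were separate and higher, 23.9% separate and lower, and 49.7% separate either way. Tgfb1 was 3.08-fold above sham in SCI_Veh (log2 1.63 ± 0.17 SE, adjusted p = 2.90e-05, edgeR) and 2.48-fold above sham in SCI_ALA (log2 1.31 ± 0.17 SE, adjusted p = 0.000158). Between SCI_ALA and SCI_Veh its log2 difference was -0.31 ± 0.16 SE with a 95% interval of -0.67 to 0.05 (adjusted p = 0.471), an interval that spans no difference and a moderate decrease.

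The other ligands varied more between replicates than between groups. Tgfb2 (chromosome 13, 105039853 to 105141030, minus strand), which acts in development and in astrocytes, had 20.1, 21.2 and 21.4 CPM in SCI_ALA, 15.9, 38.0 and 11.5 CPM in SCI_Veh, and 18.2, 17.9 and 23.3 CPM in sham. SCI_Veh replicate 2 was the highest of all libraries and SCI_Veh replicate 3 the lowest. The log2 difference of Tgfb2 was 0.14 ± 0.35 SE in SCI_Veh against sham (adjusted p = 0.789) and -0.06 ± 0.35 SE in SCI_ALA against SCI_Veh (adjusted p = 0.964). Without SCI_Veh replicate 2 these became -0.52 and 0.62, neither of them called.

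Tgfb3, a ligand known from palate development and wound repair, lies on chromosome 6 (109913757 to 109935533, minus strand). It had 28.9, 38.5 and 51.9 CPM in SCI_ALA, 48.4, 38.1 and 47.7 CPM in SCI_Veh, and 14.5, 38.0 and 45.8 CPM in sham. All 3 groups overlapped, and sham replicate 1 was the lowest library. Its log2 difference was 0.45 ± 0.36 SE in SCI_Veh against sham (adjusted p = 0.349) and -0.17 ± 0.35 SE in SCI_ALA against SCI_Veh (adjusted p = 0.888).

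Ltbp1 (chromosome 6, 21203502 to 21600451, minus strand) binds the latent ligand and anchors it in the matrix. Its levels were 54.6, 55.8 and 25.4 CPM in SCI_ALA, 48.7, 90.3 and 26.1 CPM in SCI_Veh, and 67.3, 36.0 and 55.4 CPM in sham. The order of the SCI_Veh libraries was that of Tgfb2, with replicate 2 highest and replicate 3 lowest. Its log2 difference was 0.06 ± 0.46 SE in SCI_Veh against sham (adjusted p = 0.936) and -0.28 ± 0.46 SE in SCI_ALA against SCI_Veh (adjusted p = 0.843), with the widest 95% intervals of the 10 members in both comparisons, -0.98 to 1.09 and -1.32 to 0.76.

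The receptors that carry the signal, Tgfbr1 and Tgfbr2, rose after injury, and Tgfbr1 was lower with alpha-lipoic acid than with saline. Tgfbr1 (ENSRNOG00000007036, chromosome 5, 63050758 to 63119635, plus strand) encodes the type I receptor kinase, also called ALK5. It had 87.8, 84.6 and 128 CPM in SCI_ALA, 241, 252 and 220 CPM in SCI_Veh, and 45.4, 36.7 and 43.6 CPM in sham. The 3 groups did not overlap, with SCI_ALA between SCI_Veh and sham. Tgfbr1 was 5.67-fold above sham in SCI_Veh (log2 2.50 ± 0.19 SE, adjusted p = 3.16e-06, edgeR) and 2.39-fold above sham in SCI_ALA (log2 1.26 ± 0.18 SE, adjusted p = 0.00033).

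Between the injured groups Tgfbr1 averaged 100 ± 24.1 CPM in SCI_ALA and 238 ± 16.3 CPM in SCI_Veh (SD, n = 3 each), 2.38-fold lower with alpha-lipoic acid (log2 -1.25 ± 0.18 SE, adjusted p = 0.0483, edgeR). By unadjusted p it ranked 4 of 16678 genes, in a comparison in which 20 genes were called. The size of the difference held in all 23 refits with other settings or libraries, from -1.46 to -1.08 on the log2 scale. The call was lost in 14 of them, with an adjusted p between 0.0507 and 0.170. Among these were the fits without SCI_ALA replicate 1 (0.114), SCI_ALA replicate 2 (0.166), SCI_Veh replicate 1 (0.170), SCI_Veh replicate 2 (0.132), SCI_Veh replicate 3 (0.125) and sham replicate 3 (0.0507). With sham replicate 2 and SCI_ALA replicate 3 both left out, the log2 difference was -1.45 (adjusted p = 0.0142).

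Log2 differences were related to gene length in the same comparison. The correlation of gene length with a library's deviation averaged -0.237 ± 0.250 in SCI_ALA and 0.075 ± 0.038 in SCI_Veh (SD, n = 3 each, exact permutation p = 0.1). The SCI_ALA libraries were uneven, with replicate 1 at 0.033, replicate 2 at -0.285 and replicate 3 at -0.460. Across 16678 genes the Spearman correlation of the log2 difference with gene length was -0.277, and 6 of the 7 genes called lower were in the longest of 4 length classes of near-equal size, of 3502 to 29464 bases, which holds Tgfbr1 at 5866 bases. The median log2 difference of that class was -0.146. With each library's length trend removed, the Tgfbr1 difference was -1.08 (adjusted p = 0.0687). The part of length in the result was not tested further.

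**Figure D2:**
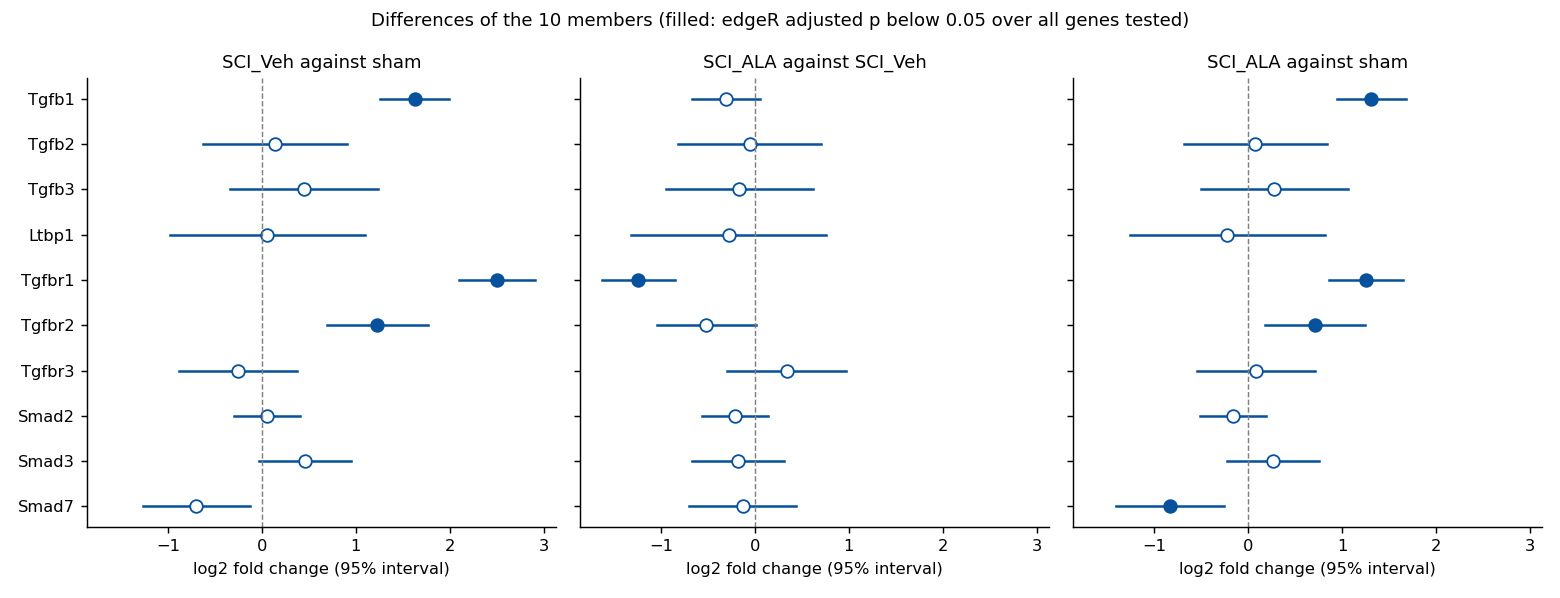
Log2 fold changes (x axis) of the 10 genes (y axis) in SCI_Veh against sham, SCI_ALA against SCI_Veh and SCI_ALA against sham, with 95% intervals as lines and filled points for an edgeR adjusted p below 0.05. Tgfbr1 has the largest difference among the members in SCI_Veh against sham, 2.50, and in SCI_ALA against SCI_Veh, -1.25.

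Tgfbr2 (ENSRNOG00000013265, chromosome 8, 124312754 to 124399494, minus strand), the ligand-binding type II receptor kinase, had 53.9, 44.6 and 44.8 CPM in SCI_ALA, 72.9, 79.9 and 52.4 CPM in SCI_Veh, and 23.3, 22.4 and 41.8 CPM in sham. All injured libraries were above all sham libraries, and SCI_ALA overlapped SCI_Veh through a single pair of libraries. In SCI_Veh it was 2.34-fold higher than in sham (log2 1.23 ± 0.25 SE, adjusted p = 0.00222, edgeR). In SCI_ALA it was 1.64-fold higher than in sham (log2 0.71 ± 0.24 SE, adjusted p = 0.0422). The second call was lost in 11 of 23 refits, among them those without SCI_ALA replicate 1 (0.122), SCI_ALA replicate 2 (0.0754), SCI_ALA replicate 3 (0.0736), SCI_Veh replicate 1 (0.0580), sham replicate 1 (0.138) and sham replicate 2 (0.121), and without sham replicate 2 and SCI_ALA replicate 3 together (0.169). Against SCI_Veh, the SCI_ALA difference was -0.52 ± 0.24 SE with a 95% interval of -1.05 to 0.01 (adjusted p = 0.417).

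Tgfbr3 (chromosome 14, 3506339 to 3682545, plus strand), the co-receptor betaglycan, did not pass in any comparison. It had 87.6, 85.8 and 68.3 CPM in SCI_ALA, 62.7, 87.6 and 41.2 CPM in SCI_Veh, and 77.6, 49.3 and 102 CPM in sham. The groups overlapped throughout. Its log2 difference was -0.26 ± 0.29 SE in SCI_Veh against sham (adjusted p = 0.517) and 0.34 ± 0.29 SE in SCI_ALA against SCI_Veh (adjusted p = 0.671).

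The receptor-activated Smads passed the test in none of the 3 comparisons. Smad2 (chromosome 18, 72550219 to 72612078, plus strand) had 29.1, 29.9 and 25.2 CPM in SCI_ALA, 35.6, 32.0 and 30.2 CPM in SCI_Veh, and 26.7, 31.6 and 36.0 CPM in sham. The injured groups lay close together without overlapping, SCI_ALA below SCI_Veh, and both overlapped sham. Smad2 and Tgfbr1 were the 2 of 10 members with every SCI_ALA library below every SCI_Veh library, an arrangement shown by 12.2% of all tested genes, with 23.8% separate either way. The log2 difference of Smad2 was 0.05 ± 0.16 SE in SCI_Veh against sham (95% interval -0.30 to 0.41, adjusted p = 0.828) and -0.21 ± 0.16 SE in SCI_ALA against SCI_Veh (95% interval -0.57 to 0.14, adjusted p = 0.624). These intervals were the narrowest of the 10 members in both comparisons.

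Smad3 (chromosome 8, 68569530 to 68678349, minus strand) had 34.8, 36.0 and 24.0 CPM in SCI_ALA, 35.2, 40.9 and 31.6 CPM in SCI_Veh, and 27.9, 18.6 and 32.0 CPM in sham. The SCI_Veh and sham groups overlapped through SCI_Veh replicate 3 and sham replicate 3. Its log2 difference was 0.45 ± 0.22 SE in SCI_Veh against sham (adjusted p = 0.132), which was called with the gene length trend removed (adjusted p = 0.0456), and -0.18 ± 0.22 SE in SCI_ALA against SCI_Veh (adjusted p = 0.777).

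Smad7 (ENSRNOG00000018359, chromosome 18, 71395830 to 71424157, plus strand), the feedback inhibitor, was the 1 member called lower in an injured group than in sham. It had 29.3, 18.0 and 17.2 CPM in SCI_ALA, 27.6, 18.3 and 24.9 CPM in SCI_Veh, and 48.7, 38.2 and 28.1 CPM in sham. All SCI_Veh libraries were below all sham libraries, and SCI_ALA overlapped sham through SCI_ALA replicate 1 and sham replicate 3. Its level fell in SCI_ALA, to 21.5 ± 6.79 CPM against 38.4 ± 10.3 CPM in sham (SD, n = 3 each), 1.78-fold lower (log2 -0.83 ± 0.26 SE, adjusted p = 0.0287, edgeR). In SCI_Veh against sham the log2 difference was -0.70 ± 0.26 SE and missed the threshold (adjusted p = 0.0522), while 10 of 23 refits called it.

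Both Smad7 results turned on single libraries. In SCI_ALA against sham the call was lost without SCI_ALA replicate 2 (0.111), SCI_ALA replicate 3 (0.113), sham replicate 1 (0.125) and sham replicate 2 (0.0506), and without sham replicate 2 and SCI_ALA replicate 3 together (0.150). In SCI_Veh against sham the difference was called without SCI_ALA replicate 1 (0.0351) and without sham replicate 3 (0.0255). The injured groups did not differ detectably in Smad7 at this depth and replicate number, with a log2 difference of -0.13 ± 0.26 SE in SCI_ALA against SCI_Veh (95% interval -0.70 to 0.44, adjusted p = 0.877).

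As a set, the members had a median log2 difference of 0.29 in SCI_Veh against sham, -0.20 in SCI_ALA against SCI_Veh and 0.18 in SCI_ALA against sham, beside medians of 0.003, -0.008 and -0.009 over all tested genes. Below 0 were 9 of 10 members in SCI_ALA against SCI_Veh, although Tgfbr1 was the single call among them. Lower log2 differences went with greater gene length in that comparison, and the longest of 4 length classes had a median of -0.146. Tgfb2, Ltbp1, Tgfbr1, Tgfbr3, Smad3 and Smad7 are in that class. The part of length in the median of the set was not tested. The groups of 3 of 10 members in SCI_ALA against sham were separate and higher, where 23.4% of all tested genes were, with 45.7% separate either way.

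Levels were compared between genes per length, as the deposited FPKM, which divide a gene's counts by its length and by library size. Tgfb1 had the highest mean of the members in every group, 45.2 FPKM in SCI_ALA, 55.9 FPKM in SCI_Veh and 18.3 FPKM in sham, and Tgfb2 the lowest, 4.79, 4.99 and 4.56 FPKM. Tgfbr1 held a different place in each group. In SCI_Veh it was second at 39.9 FPKM, above Tgfbr2 at 24.2 FPKM and Tgfb3 at 16.8 FPKM, and the first 4 genes did not overlap one another or the gene after them, Smad2 at 11.0 FPKM.

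In SCI_ALA Tgfbr1 stood at 16.9 FPKM, overlapping Tgfbr2 at 16.9 FPKM and Tgfb3 at 15.0 FPKM. In sham it was eighth, at 7.09 FPKM, between Ltbp1 at 8.41 FPKM and Smad3 at 5.16 FPKM, and every pair of neighbours in the sham order overlapped. From Smad2 down, neighbours in the SCI_ALA and SCI_Veh orders also overlapped.

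Other genes of the pathway were examined in 5 lists of 91 genes in all, of which 86 were tested. The lists were made with earlier results of these data known, so their shares of calls are not independent evidence. In SCI_Veh against sham 36 of 86 rose and 4 fell, where 19.5% of all tested genes rose and 18.5% fell. In SCI_ALA against SCI_Veh 0 rose and 1 fell, where 0.0779% and 0.042% of all tested genes did. In SCI_ALA against sham 30 rose and 5 fell, where 17.3% and 15.8% of all tested genes did. Known response genes made up 18 of the 36 that rose in SCI_Veh. The plot of the 5 lists shows each gene's log2 difference.

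**Figure D3:**
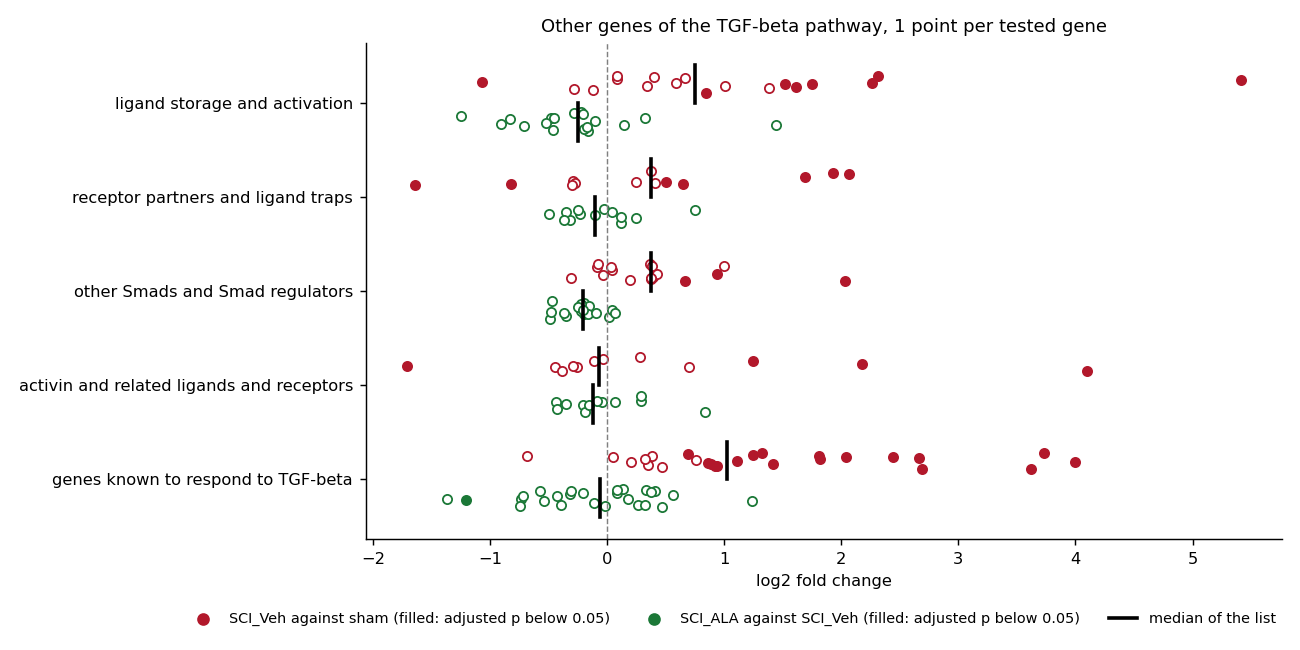
Log2 fold changes (x axis) of 86 tested pathway genes in 5 lists (y axis), 1 point per gene, in SCI_Veh against sham and SCI_ALA against SCI_Veh, with filled points for an edgeR adjusted p below 0.05 and bars for the list medians. The median of response genes was 1.02 in SCI_Veh against sham and -0.06 in SCI_ALA against SCI_Veh.

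Genes that store and activate latent ligand rose in part: 7 of 18 tested rose and 1 fell in SCI_Veh against sham (median log2 0.75), beside 19.5% and 18.5% of all tested genes. In SCI_ALA against sham 5 rose and 1 fell (median 0.75), beside 17.3% and 15.8% of all tested genes. The listed gene that fell in both was Itgb8, an integrin subunit that activates latent ligand, named after its values were seen (log2 -1.07 in SCI_Veh, adjusted p = 0.0169, and -1.35 in SCI_ALA, adjusted p = 0.00613, edgeR). The count of 1 that fell in SCI_Veh is 0 without SCI_Veh replicate 2, SCI_Veh replicate 3 or sham replicate 3. It is also 0 with limma without a filter. Plau, the urokinase that generates plasmin, averaged 28.8 ± 7.42 CPM in SCI_ALA, 68.3 ± 21.0 CPM in SCI_Veh and 1.58 ± 0.73 CPM in sham, 42.6-fold above sham in SCI_Veh (adjusted p = 1.66e-06, edgeR). Furin, the protease that cleaves the ligand's propeptide, averaged 54.2 ± 7.62 CPM in SCI_ALA, 96.3 ± 4.78 CPM in SCI_Veh and 20.0 ± 3.99 CPM in sham. It was 4.80-fold above sham in SCI_Veh (adjusted p = 5.15e-06), and all SCI_ALA libraries were below all SCI_Veh libraries, with a log2 difference of -0.83 ± 0.17 SE that missed the threshold (adjusted p = 0.108) and passed it without sham replicate 2 (0.0342).

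Nrros, which anchors latent ligand on microglia and macrophages, was 3.35-fold above sham in SCI_Veh (adjusted p = 4.70e-05, edgeR) and 2.92-fold above sham in SCI_ALA (adjusted p = 0.000149). Igf2r, the mannose 6-phosphate receptor that binds latent ligand, was 3.05-fold above sham in SCI_Veh (adjusted p = 0.000927). Thbs1, the matrix protein thrombospondin 1 that can release active ligand, was 2.87-fold above sham in SCI_Veh (adjusted p = 0.00135). Of the 18 genes, 0 passed edgeR's test in SCI_ALA against SCI_Veh, while 4 were lower at an unadjusted p below 0.05 and 2 were called lower by DESeq2.

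Among receptor partners and ligand traps, 5 of 13 rose and 2 fell in SCI_Veh against sham (median log2 0.37), beside 19.5% and 18.5% of all tested genes. In SCI_ALA against sham 4 rose and 2 fell (median 0.22), beside 17.3% and 15.8% of all tested genes. There the count that fell is 1 without SCI_ALA replicate 3 or sham replicate 3. Eng, the co-receptor endoglin, was 4.19-fold above sham in SCI_Veh (adjusted p = 7.88e-05, edgeR), Dab2, an adaptor of the receptors, 3.23-fold higher (adjusted p = 0.00021), and Cd109, a co-receptor that promotes receptor turnover, 3.80-fold higher (adjusted p = 0.0116). Fmod, the ligand-binding proteoglycan fibromodulin, fell to 22.2 ± 0.56 CPM in SCI_ALA and 28.7 ± 6.35 CPM in SCI_Veh, against 89.5 ± 20.3 CPM in sham (adjusted p = 3.76e-05 and 9.26e-05). Zfyve9, the Smad anchor SARA, was 1.76-fold lower in SCI_Veh than in sham (adjusted p = 0.0053). None passed in SCI_ALA against SCI_Veh (0 of 13 by edgeR, 0 by DESeq2). The 1 gene with an unadjusted p below 0.05 was Dcn, the ligand-binding proteoglycan decorin, with a log2 difference of 0.75 ± 0.29 SE (adjusted p = 0.340).

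Of 17 other Smads and Smad regulators, 3 rose and 0 fell in SCI_Veh against sham (median log2 0.37), beside 19.5% and 18.5% of all tested genes, with 1 lower at an unadjusted p below 0.05 and 0 lower by DESeq2. The count that rose is 6 without sham replicate 3 and 2 to 6 over all single libraries left out. Those that rose were Tgif1, a corepressor of Smad2, 4.08-fold higher (adjusted p = 0.000114, edgeR), and the ubiquitin ligases Nedd4l, 1.91-fold higher (adjusted p = 0.00417), and Smurf1, 1.58-fold higher (adjusted p = 0.028). The Smurf1 call was lost without SCI_Veh replicate 3 (0.104) and without sham replicate 2 (0.0852). Against sham, 2 rose and 1 fell in SCI_ALA (median 0.03), beside 17.3% and 15.8% of all tested genes. Tgif1 was 3.65-fold higher there (adjusted p = 0.000259, edgeR), Nedd4l 1.63-fold higher (adjusted p = 0.021), and Rnf111, the ligase Arkadia that promotes breakdown of Smad7, 1.36-fold lower (adjusted p = 0.0375). Leaving out any 1 library other than sham replicate 2 removed the Rnf111 call (adjusted p 0.0604 to 0.126), and that of Nedd4l was lost without SCI_ALA replicate 1 (0.0776), SCI_ALA replicate 2 (0.0662), sham replicate 2 (0.0551) or sham replicate 3 (0.0595). Of the 17 genes, 0 passed in SCI_ALA against SCI_Veh by edgeR and 0 by DESeq2. Rnf111 was the 1 gene with an unadjusted p below 0.05, and all 3 SCI_ALA libraries had less Rnf111 than any SCI_Veh library (difference of -0.37 ± 0.15 SE in log2, adjusted p = 0.355).

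Of 12 tested activins and related ligands and receptors, 3 rose and 1 fell in SCI_Veh against sham (median log2 -0.07), beside 19.5% and 18.5% of all tested genes. In SCI_ALA against sham 2 rose and 1 fell (median -0.05), beside 17.3% and 15.8% of all tested genes. The count that fell in SCI_Veh is 2 without sham replicate 1. Gdf15, a stress-induced distant relative of the TGF-beta ligands, averaged 14.5 ± 7.51 CPM in SCI_ALA, 19.6 ± 6.16 CPM in SCI_Veh and 1.12 ± 0.90 CPM in sham, and rose in both injured groups (adjusted p = 0.000588 in SCI_ALA and 0.000245 in SCI_Veh, edgeR). Inhbb, a subunit of activin B, fell to 1.86 ± 0.62 CPM in SCI_Veh against 6.08 ± 0.34 CPM in sham (adjusted p = 0.00612). Alpha-lipoic acid against saline gave 0 of 12 calls by edgeR, 0 by DESeq2 and 0 at an unadjusted p below 0.05, and Inhbb had the smallest p (log2 0.83 ± 0.40 SE, adjusted p = 0.432).

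Fst, the activin trap follistatin, and Inhba, a subunit of activin A, were called in SCI_Veh against sham at low levels, 1.93 ± 1.03 CPM in SCI_Veh against 0.42 ± 0.37 CPM in sham (adjusted p = 0.0404) and 3.99 ± 0.95 CPM in SCI_Veh against 1.66 ± 0.94 CPM in sham (adjusted p = 0.0466). Without them the count of 3 that rose is 1. Leaving out SCI_ALA replicate 2 or 3, SCI_Veh replicate 2 or 3, or sham replicate 1 or 2 removed the Fst call (adjusted p 0.0504 to 0.129), and leaving out any library other than sham replicate 3 removed that of Inhba (adjusted p 0.0542 to 0.136). In SCI_ALA against sham Fst rose (adjusted p = 0.0267), a call lost without SCI_ALA replicate 2 (0.111), sham replicate 1 (0.0679) or sham replicate 2 (0.0568), and Acvr2a, an activin receptor, was 1.45-fold lower (adjusted p = 0.0312), a call lost without SCI_ALA replicate 2 (0.113), SCI_ALA replicate 3 (0.0998), any 1 of the SCI_Veh libraries (0.0509 to 0.0560) or sham replicate 3 (0.108).

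Genes known to respond to TGF-beta, many of which also respond to other signals, had the largest share of calls of the 5 lists, which were made with earlier results known. In SCI_Veh against sham 18 of 26 rose and 0 fell (median log2 1.02), beside 19.5% and 18.5% of all tested genes. In SCI_ALA against sham 17 rose and 0 fell (median 1.11), beside 17.3% and 15.8% of all tested genes. In both comparisons 0 were lower at an unadjusted p below 0.05 or by DESeq2, while 1 was called lower in SCI_Veh without SCI_Veh replicate 3. Timp1, an inhibitor of matrix proteases, averaged 755 ± 114 CPM in SCI_ALA, 628 ± 154 CPM in SCI_Veh and 47.2 ± 1.16 CPM in sham, and rose in both injured groups (adjusted p = 9.88e-07 in SCI_ALA and 8.30e-07 in SCI_Veh, edgeR). Tagln, a smooth muscle actin-binding protein, averaged 517 ± 153 CPM in SCI_ALA, 375 ± 91.0 CPM in SCI_Veh and 69.0 ± 33.4 CPM in sham. Cdkn1a, the cell cycle inhibitor p21, averaged 71.4 ± 9.09 CPM in SCI_ALA, 57.0 ± 7.89 CPM in SCI_Veh and 24.1 ± 2.57 CPM in sham, so the averages of both genes were higher in SCI_ALA than in SCI_Veh, with overlapping libraries and no call between them.

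The matrix protein periostin, Postn, averaged 37.7 ± 5.47 CPM in SCI_ALA, 97.1 ± 23.2 CPM in SCI_Veh and 6.04 ± 4.18 CPM in sham, 16.0-fold above sham in SCI_Veh (adjusted p = 3.97e-05, edgeR). Vcan, the matrix proteoglycan versican, had 69.5, 82.9 and 96.0 CPM in SCI_ALA, 160, 216 and 197 CPM in SCI_Veh, and 31.9, 24.0 and 34.7 CPM in sham. It was the 1 of 26 response genes that fell in SCI_ALA against SCI_Veh, 2.31-fold lower (log2 -1.21 ± 0.19 SE, adjusted p = 0.0483). In that comparison 4 of the 26 were lower at an unadjusted p below 0.05 and 2 were called lower by DESeq2, while 0 were higher by either. The Vcan call was lost on leaving out any 1 library other than sham replicate 2, with an adjusted p of 0.0507 without sham replicate 3, 0.0607 without sham replicate 1 and 0.124 to 0.172 without any SCI_ALA or SCI_Veh library. Vcan is also a long transcript, of 11553 bases, and with each library's length trend removed its log2 difference was -0.92 (adjusted p = 0.118).

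Cell type markers moved with the same groups. In whole tissue, fewer cells of a type and less RNA per cell cannot be told apart. The 8 phagocyte markers, none of them at 0, summed to 6253 to 8845 CPM in SCI_ALA, 15363 to 18793 CPM in SCI_Veh and 581 to 802 CPM in sham. All 8 rose in SCI_Veh and in SCI_ALA against sham. In SCI_ALA against SCI_Veh 0 of 8 were called (edgeR), with a median log2 difference of -0.74. All 8 were below 0 there, from -1.78 for Spp1 to -0.02 for Cd63. The 7 markers of homeostatic microglia summed to 543 to 744 CPM in SCI_ALA, 893 to 1055 CPM in SCI_Veh and 387 to 483 CPM in sham, and the 6 mural cell markers to 112 to 123, 179 to 207 and 42.1 to 85.3 CPM. In each of these 3 lists the sums lay in the group order seen for Tgfbr1, without overlap. Of the 16 marker lists examined, that of dividing cells did so too, and the others did not. For these 3 lists a two-sided exact permutation test on the sums gave p = 0.1 for each pair of groups, the smallest that 3 against 3 libraries allow. The sums are carried by their most abundant genes: over the 9 libraries Anpep held 10350 of 16627 mural counts, Csf1r 41639 of 89494 microglial counts and Spp1 675013 of 1154778 phagocyte counts. Gene by gene, 5 of 7 microglial and 2 of 6 mural markers rose in SCI_Veh against sham and 0 fell, beside 19.5% and 18.5% of all tested genes. In SCI_ALA against SCI_Veh 0 of 7 microglial and 0 of 6 mural markers were called (edgeR). Of the same markers, 3 microglial ones rose and 2 fell in SCI_ALA against sham (median log2 0.59), and 1 mural marker rose and 1 fell (median -0.03, with 3 above and 3 below 0).

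Oligodendrocyte precursor markers also separated the injured groups, with sums of 495 to 668 CPM in SCI_ALA, 679 to 846 CPM in SCI_Veh and 638 to 811 CPM in sham (exact permutation p = 0.1 for SCI_ALA against SCI_Veh). The 1 of 5 called lower there was Ptprz1, a receptor-type phosphatase named after its value was seen (log2 -1.46, adjusted p = 0.0483, edgeR). Of the other precursor markers, Olig1 held 41280 and Sox10 17164 of the 90468 counts of the list over the 9 libraries. By gene, 4 of 5 were below 0 in SCI_ALA against SCI_Veh and 1 was above, Pdgfra (log2 0.12, adjusted p = 0.906). T cell markers were few and lay the other way, at 9.79 to 12.1 CPM in SCI_ALA, 0.97 to 7.69 CPM in SCI_Veh and 0.9995 to 3.08 CPM in sham (exact permutation p = 0.1 for SCI_ALA against SCI_Veh, 0 of 4 called). The part of these marker lists in the Tgfb1, Tgfbr1, Tgfbr2 and Vcan results was not tested.

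**Figure D4:**
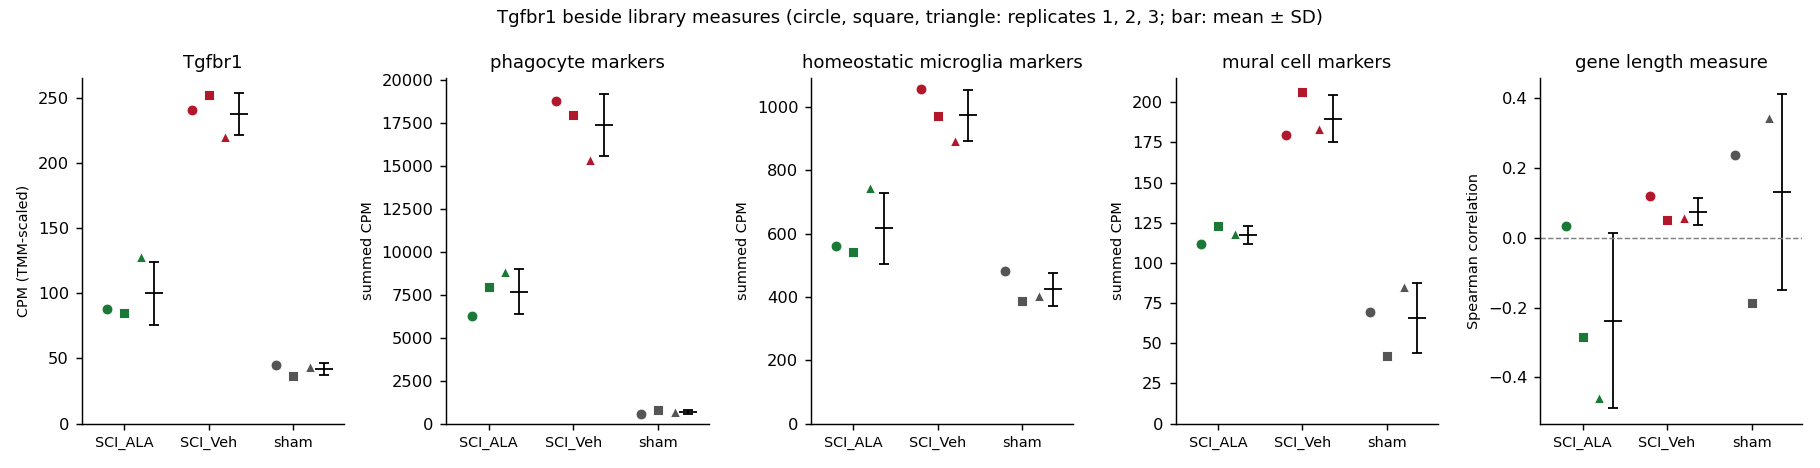
Tgfbr1 level (CPM), summed levels of phagocyte, homeostatic microglia and mural cell markers (summed CPM) and the Spearman correlation of gene length with each library's deviation (y axes) in SCI_ALA, SCI_Veh and sham (x axes). Points are libraries and bars the mean and SD of 3. In SCI_ALA the phagocyte sum reached 8845 CPM at most, below the 15363 CPM of the lowest SCI_Veh library, as the 128 CPM of Tgfbr1 lay below 220 CPM. No single phagocyte marker was called between these groups (0 of 8, edgeR).

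Markers of dividing cells summed to 296 to 369 CPM in SCI_ALA, 460 to 464 CPM in SCI_Veh and 23.5 to 54.7 CPM in sham. These sums were also in the group order of Tgfbr1, without overlap (exact permutation p = 0.1 for each pair of groups). Of the 6 markers, 0 were called in SCI_ALA against SCI_Veh. The 5 listed platelet markers, which mark a cell rich in TGF-beta 1 protein, summed to 93.3 to 177 CPM in SCI_ALA, 69.9 to 106 CPM in SCI_Veh and 9.38 to 20.2 CPM in sham, with Gp1bb at 0 counts in every library. Pf4, the chemokine platelet factor 4, held 9671 of their 10133 counts over the 9 libraries, Itga2b 411, Ppbp 27 and Gp9 24, so the sum mainly follows Pf4. Against sham, Pf4 rose in SCI_Veh (log2 2.81, adjusted p = 0.000121, edgeR) and in SCI_ALA (log2 3.40, adjusted p = 5.68e-05). Itga2b, the only other platelet marker tested, passed in neither (log2 0.33, adjusted p = 0.600, and log2 0.35, adjusted p = 0.588). The sum thus does not show a rise of platelet markers as a set.

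Neuronal markers summed to 2482 to 3099 CPM in SCI_ALA, 1726 to 2534 CPM in SCI_Veh and 4397 to 6240 CPM in sham. Oligodendrocyte markers summed to 23216 to 32720, 18663 to 31267 and 45973 to 82360 CPM, and astrocyte markers to 10175 to 11156, 6749 to 9469 and 10468 to 16222 CPM, in the same order of groups. Sham therefore held a larger share of neuronal and oligodendrocyte marker counts than every injured library, beside the lower Tgfb1, Tgfbr1 and Tgfbr2. The astrocyte sums of SCI_ALA overlapped sham and lay above those of SCI_Veh (exact permutation p = 0.1). Gfap held 889087 of the 1437170 astrocyte counts over the 9 libraries. By gene, 6 of 8 astrocyte markers fell in SCI_Veh and 6 of 8 in SCI_ALA against sham (edgeR), and 0 were called between the injured groups.

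Within SCI_Veh the members Tgfb2, Ltbp1 and Tgfbr3 were each highest in replicate 2 and lowest in replicate 3. The called receptors Tgfbr1 and Tgfbr2, and Smad3, had the same order of SCI_Veh libraries over smaller ranges. The highest SCI_Veh library exceeded the lowest 3.29-fold for Tgfb2, 3.46-fold for Ltbp1 and 2.13-fold for Tgfbr3. For Tgfbr1, Tgfbr2 and Smad3 it did so 1.15-fold, 1.53-fold and 1.29-fold. Fibroblast markers summed to 3158, 5792 and 3384 CPM and endothelial markers to 158, 207 and 99.2 CPM in SCI_Veh replicates 1, 2 and 3, so replicate 2 was the highest library for both lists. Cldn5, a defining endothelial marker, had 0 counts in every library. The collagen response genes Col1a1, Col1a2 and Col3a1 and the ligand trap Dcn are on the fibroblast list too.

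**Figure D5:**
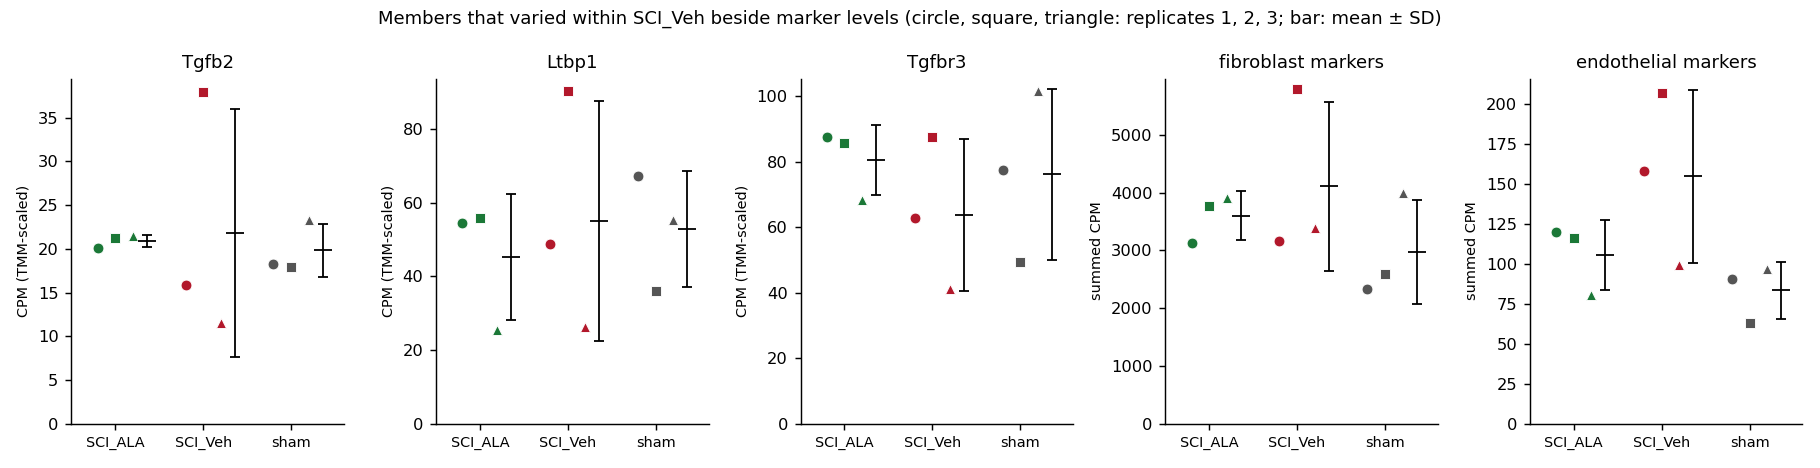
Levels of Tgfb2, Ltbp1 and Tgfbr3 (CPM) and summed fibroblast and endothelial markers (summed CPM) (y axes) in SCI_ALA, SCI_Veh and sham (x axes), with points for libraries, shapes for replicate numbers and bars for the mean and SD of 3. SCI_Veh replicate 2 is the highest SCI_Veh library in all 5 panels, with 38.0 CPM for Tgfb2 and 5792 CPM for the fibroblast sum.

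The genes whose profiles over the 9 libraries were most like those of Tgfb1 and Tgfbr1 were found by the root mean square difference of log2 CPM, each gene centred on its own mean. For Tgfb1 these were Ptpn7, a leukocyte phosphatase, at 0.104, P4hb, a protein disulphide isomerase, at 0.109, P2ry6, a receptor for UDP on microglia, at 0.115, the membrane protein Stom at 0.117 and the lysosomal protease Ctsa at 0.117, against a median of 0.832 over all tested genes. For Tgfbr1 they were Vcan at 0.186, Sgpl1, which degrades sphingosine 1-phosphate, at 0.189, Furin at 0.246, Tcirg1, a proton pump subunit, at 0.247 and Tmem86a at 0.270, against a median of 1.11. Vcan and Furin thus stand both on the pathway lists and among the 5 profiles closest to Tgfbr1. The profiles share libraries and depth, and the distances are a description with no test.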

How the data were processed

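Total RNA of 9 rat spinal cord samples was sequenced after library preparation with a NEBNext Ultra RNA kit, per the labels' protocols. The authors deposited raw counts per gene and FPKM values in separate tables. The submitters' processing notes name HISAT2 2.0.5, featureCounts 1.5.0-p3, DESeq2 1.20.0 and the builds Rnor_6.0 and rn6, with no role. Every deposited FPKM of a gene with over 100 counts in that library was rebuilt within 0.1% from the count, the gene's length and a size per library of 0.872 to 1.09 times its total. Replicate pairs differed by more than counting noise (chi-square over its degrees of freedom, 18.4 to 66.1).

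Counts of all 9 libraries were fitted with edgeR 4.0.16 (R 4.3.3, limma 3.58.1): filterByExpr by group (minimum count 10, minimum total 15), TMM factors 0.862 to 1.08, robust quasi-likelihood F tests with 6 residual and a median of 5.85 prior degrees of freedom. SE is the log2 difference over the root of F. CPM are TMM-scaled. The procedure was run on simulated counts with the same dispersion for every gene and no length trend, scored for SCI_Veh against sham. That run does not bear on libraries with uneven length trends or on SCI_ALA against SCI_Veh. Intervals cover the spread between libraries. Alternatives were other normalizations, filters and dispersion settings, DESeq2 1.42.0, only the groups compared, a replicate block, removal of a loess length trend (span 0.5), limma on log2(FPKM + 1 or 0.1) with or without a minimum of 1 FPKM in 3 libraries, a 2-fold minimum and libraries left out. Members, gene lists and the choice of 2 libraries left out together were made with earlier results of these data known. All members were named. Per list, up to 5 called genes were named for SCI_Veh against sham and up to 3 for each other comparison, by smallest p, or the smallest p where none passed; the 5 closest profiles were named for Tgfb1 and Tgfbr1 (log2 prior count 2). The plots were drawn with matplotlib 3.10.9 in Python 3.11.15. Of the listed genes, Ep300 was not analysed here, and Itgb6, Smad9, Acvr1c and Mstn had too few counts.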

Additional observations from a re-analysis of the deposited data

How the results depend on the processing

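Among the members, 690 refits over the 3 comparisons kept direction and call in 614. In 32 a call was lost, in 11 one was gained and in 33 the sign of a difference that was not called turned. Tgfb1, Tgfbr1 and Tgfbr2 rose in SCI_Veh against sham in all 23 refits, and Tgfb1 and Tgfbr1 rose in SCI_ALA against sham in all 23. Of 964 refits of the named pathway genes, 83 lost a call, 3 gained one and 0 turned sign. With 3 libraries a group and 171 counts in the thinnest library of a member, small differences cannot be detected. Library totals shifted the median of all genes by at most 0.09 (log2).

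The number of members called lower in SCI_Veh against sham was 1 rather than 0 with RLE factors, no count filter, at least 50 counts, DESeq2, only the groups compared or the length trend removed (0 to 1 with single libraries left out); the gene was Smad7. In SCI_ALA against SCI_Veh it was 0 rather than 1 with library totals, without robust estimates, with the length trend removed and in the 3 limma fits (0 to 1 with libraries left out). In SCI_ALA against sham it was 0 rather than 1 with library totals, limma without a filter, sham replicate 2 and SCI_ALA replicate 3 left out together, or a 2-fold minimum (0 to 1 with libraries left out). The cause was not tested.

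Over all genes, SCI_ALA against SCI_Veh gave 20 calls, and 1 with library totals, 45 without a filter, 377 with DESeq2, 1 without robust estimates, 161 with only the groups compared, 3, 1 and 0 with limma, and 0 to 86 with single libraries left out (86 without sham replicate 2, 0 without SCI_ALA replicate 2). At an unadjusted p below 0.05 there were 2050. A 2-fold minimum left 3801 of 6337 calls in SCI_Veh against sham and 3257 of 5525 in SCI_ALA against sham.

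With sham replicate 2 and SCI_ALA replicate 3 left out together, Fst (adjusted p = 0.104), Inhba (0.132) and Smurf1 (0.0903) lost their calls in SCI_Veh against sham, and Fst (0.0848), Acvr2a (0.0991) and Rnf111 (0.0921) in SCI_ALA against sham.

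Whether the replicate numbers pair the samples could not be settled with 3 libraries a group. Same-numbered libraries had correlations of deviations from -0.09 to 0.18, positive for replicate 1 and negative for replicate 2 in every comparison. Of 6 libraries, 4, 3 and 2 correlated best with their own number in SCI_Veh against sham, SCI_ALA against SCI_Veh and SCI_ALA against sham. With the replicate block, 1 member was lower in SCI_Veh against sham, and in SCI_ALA against SCI_Veh 0 members and 0 genes of any kind were called. The block also ended the calls of Inhba in SCI_Veh against sham (adjusted p = 0.0522), of Tgfbr1 (0.0789) and Vcan (0.0797) in SCI_ALA against SCI_Veh, and of Tgfbr2 (0.0633) and Rnf111 (0.0569) in SCI_ALA against sham, and changed no other call of a named gene than that of Smad7 (0.0214 in SCI_Veh against sham). With the block and the length trend removed, these member counts were 1 and 0. The block turned Ltbp1 to -0.121 in SCI_Veh against sham (-0.118 also with the length trend removed) and Tgfb2 to 0.046 in SCI_ALA against SCI_Veh (0.148 with the length trend removed).

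Other turned signs (log2) were those of members never called in that comparison. Under the limma fits in SCI_Veh against sham, Tgfb2 was -0.0200, -0.0200 and -0.0509 and Ltbp1 -0.0634, -0.0634 and -0.0849. With sham replicate 2 and SCI_ALA replicate 3 left out, Ltbp1 was -0.168 there, Ltbp1 was 0.0132 and Smad7 0.0142 in SCI_ALA against SCI_Veh, and Tgfb2 was -0.00998 and Tgfbr3 -0.0499 in SCI_ALA against sham. Tgfb2 in SCI_ALA against SCI_Veh was 0.0201 with the length trend removed and 0.0862, 0.0862 and 0.131 with limma. With single libraries left out, values in SCI_Veh against sham ran from -0.525 to 0.467 for Tgfb2, -0.498 to 0.415 for Ltbp1, -0.551 to 0.0256 for Tgfbr3 and -0.0354 to 0.182 for Smad2. In SCI_ALA against SCI_Veh they ran from -0.375 to 0.618 for Tgfb2, -0.407 to 0.0145 for Tgfb3, -0.627 to 0.286 for Ltbp1 and -0.424 to 0.00428 for Smad7. In SCI_ALA against sham they ran from -0.0601 to 0.629 for Tgfb3, -0.442 to 0.0648 for Ltbp1 and -0.158 to 0.358 for Tgfbr3.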
